A study of Saccharomyces cerevisiae with 3 samples.

Results

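The genes described here encode proteins of the mitochondrial ribosome of budding yeast. They were chosen by symbol in the annotation of the array platform (MRP, MRPL, MRPS or RSM followed by a number, and RML2, YML6, IMG1, IMG2 and NAM9). MRP8 was left out because it is no ribosomal protein. The rule found 60 of the 4069 genes with named spots, 36 for the large and 24 for the small subunit, and each was measured by 7 spots. Of 80 genes that R64, the RefSeq assembly of the yeast genome, lists with a uniform name for a protein of this ribosome, 59 were among the 60, and RSM22, which encodes a methyltransferase-like protein of the small subunit, was the one without such a name. MRPL1, MRPL22, MRPL50, MRPL51, YML6, MRPS8, MRPS12, MRPS16, MRPS17 and MRPS35 were not analysed here.

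The mitochondrial ribosome translates the few proteins that mitochondrial DNA encodes, most of them membrane-embedded subunits of the respiratory chain and the ATP synthase. Nearly all of its own proteins are encoded in the nucleus, made by cytosolic ribosomes and imported, so that their mRNAs are ordinary nuclear transcripts. Many of the proteins descend from those of bacterial ribosomes, and others are found in mitochondria alone. Yeast can grow on glucose by fermentation without this ribosome, but not on carbon sources that have to be respired.

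Gene expression was measured in BY4741, a haploid laboratory strain carrying his3, leu2, met15 and ura3 deletions that stressed and untreated cells share. Each of 3 independent cultures in rich medium at mid-log phase gave RNA from cells after 15 minutes in 0.4 M NaCl and RNA from untreated cells, and both were hybridized to 1 two-colour array. The time is that of the labels and methods, and a passage of the study's text gives a shorter one. Each value given here is a log2 ratio, NaCl over untreated, averaged over the spots of a gene. Stressed RNA carried Cy3 and untreated RNA Cy5 on all 3 arrays, so a dye effect particular to a gene cannot be told apart from an effect of NaCl. The direction of the ratio is not stated with the values. It was taken from STL1, CTT1 and ALD3, which the study followed as osmoresponsive genes by northern blot and which stood at mean values of 8.04, 6.93 and 6.94. The median over all genes was -0.0010, -0.0133 and -0.0229 on the arrays of replicates 1, 2 and 3. The values were deposited normalized, so they cannot show whether a change was shared by all transcripts. The genes deleted in BY4741 reached at most 0.21 in absolute value on any array. They are deleted in stressed and untreated cells alike, so this value does not bound the spread of an expressed gene. Fewer transcripts per cell and fewer cells holding a transcript cannot be told apart in such cultures.

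Mitochondrial ribosomal protein genes that changed upon osmostress mostly fell, by small amounts. Of the 60 genes, 28 fell and 5 rose, while 27 stayed short of the threshold (limma, Benjamini-Hochberg adjusted p under 0.05 over all genes, the test meant below by passed). Among all 4069 genes, 27.9% fell and 26.9% rose, against which the 28 genes are 46.7% and the 5 genes 8.33% of the group. The mean log2 ratio was below 0 for 42 of the 60 genes, and 35 were below 0 on all 3 arrays, where 37.3% of all genes were. Another 11 were above 0 on all 3 arrays, against 35.3% of all genes. The median over the 60 genes was -0.21, -0.23 and -0.27 on the arrays of replicates 1, 2 and 3, or -0.24 ± 0.03 (SD, n = 3). Values ran from -1.02 for MRPS9 to 0.84 for RSM28, so that 1 gene was at least 2-fold lower and none was 2-fold higher. The count of genes that fell was 17 without replicate 2, where 695 of all 4069 genes fell, against 1135 with all 3 arrays. At an adjusted p under 0.01, 19 of the 60 genes fell and 4 rose, where 19.0% and 19.9% of all genes did.

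**Figure D1:**
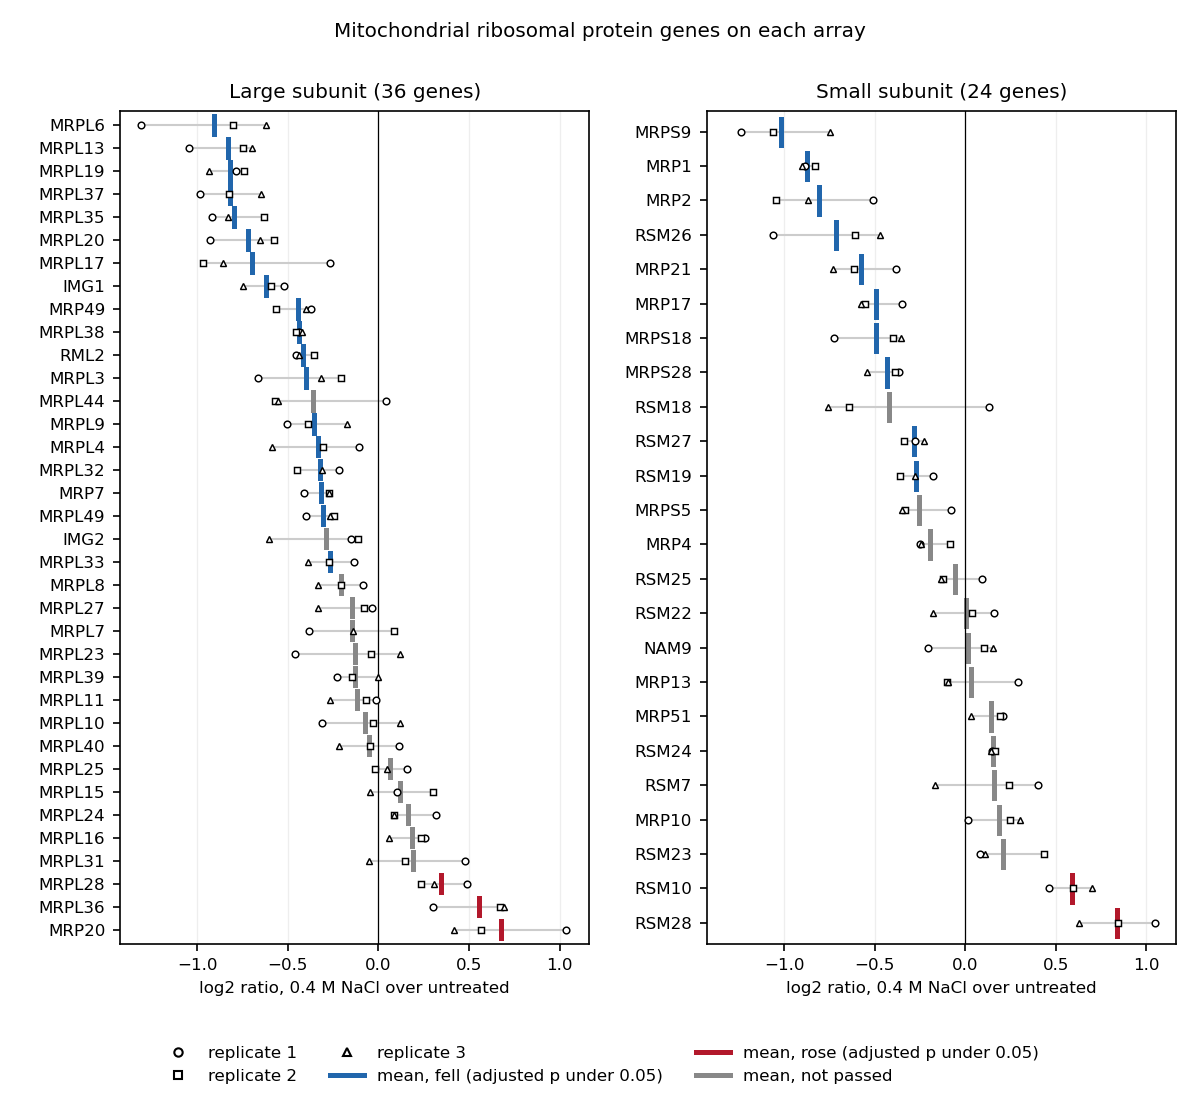
Log2 ratio of NaCl over untreated cells (x axis) for each mitochondrial ribosomal protein gene (rows, lowest mean at the top), in 36 genes of the large subunit (left) and 24 of the small subunit (right). Open symbols are the 3 arrays, grey lines their range and coloured bars their mean: 28 bars are blue (fell), 5 red (rose) and 27 grey (not passed).

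The lowest gene of all was MRPS9 of the small subunit, which encodes the homologue of bacterial S9. Its log2 ratio was -1.23, -1.06 and -0.75 on the arrays of replicates 1, 2 and 3, and it fell 2.02-fold (adjusted p = 0.000197 from limma). It was followed by MRPL6, the homologue of bacterial L6 in the large subunit, with -1.31, -0.80 and -0.62 (mean -0.91, adjusted p = 0.000888). Both were lowest on the array of replicate 1. MRP1 of the small subunit, a protein related to superoxide dismutase, had nearly the same value on each array, at -0.88, -0.83 and -0.90 (mean -0.87, adjusted p = 0.000125). MRPL13, which encodes a mitochondria-specific protein, stood at -1.05, -0.75 and -0.70 (mean -0.83). MRPL19, the homologue of bacterial L11 at the base of the stalk where translation factors bind, stood at -0.78, -0.74 and -0.94 (mean -0.82). For MRP1 and MRPL19 the spread between arrays was small beside the distance from 0 (SD of 0.04 and 0.10). MRPL6 was less even (SD of 0.36). MRPL37 had -0.99, -0.82 and -0.65 and MRPL35 -0.92, -0.63 and -0.83, both encoding mitochondria-specific proteins of the large subunit. MRP2, the homologue of bacterial S14, was at -0.51, -1.05 and -0.87 (mean -0.81). Each of these 8 genes kept its call without any 1 of the replicates, and only 3.59% of all genes had a mean lower than MRPS9.

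A further 20 genes fell, by 0.27 to 0.72 on the log2 scale. Of the mitochondria-specific proteins of the large subunit, MRPL20 had a mean of -0.72, MRPL17 of -0.70, MRP49 of -0.45 and MRPL3 of -0.40. Of the homologues of bacterial proteins in that subunit, IMG1 (L19) had -0.62, MRPL38 (L14) -0.44, RML2 (L2) -0.42, MRPL9 (L3) -0.36, MRPL4 (L29) -0.34, MRPL32 (L32) -0.33, MRP7 (L27) -0.32, MRPL49 (L21) -0.30 and MRPL33 (L30) -0.27. All of these homologues but IMG1 stood closer to 0 than MRP49. In the small subunit, RSM26 had a mean of -0.71, MRP21 (S21) of -0.58, MRP17 (S6) and MRPS18 (S11) of -0.49, MRPS28 (S15) of -0.43, the mitochondria-specific RSM27 of -0.28 and RSM19 (S19) of -0.27. MRPL38 was the most even of the 20, with -0.44, -0.45 and -0.42 on the 3 arrays. MRPL17 was the most uneven, with -0.27, -0.97 and -0.86, and stood nearer to 0 on the array of replicate 1. Without replicate 2, 11 of the 28 calls were lost (MRP49, MRPL38, RML2, MRPL9, MRPL4, MRPL32, MRP7, MRPL49, RSM27, RSM19 and MRPL33), at adjusted p from 0.0532 for RML2 to 0.3743 for RSM19. Without replicate 3, 6 of these 11 were lost as well (MRPL4, MRPL32, MRPL49, RSM27, RSM19 and MRPL33). MRPL33 was the call nearest to the threshold (adjusted p = 0.0472).

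Only 5 genes went the other way. RSM28, which encodes a mitochondria-specific protein of the small subunit, was at 1.05, 0.85 and 0.63 on the arrays of replicates 1, 2 and 3, a mean of 0.84 or 1.79-fold (adjusted p = 0.000396 from limma). It was also the only one of the 60 (1.67%) in the study's list of osmoresponsive genes, which held 9.46% of all named genes. That list was drawn up on these arrays and is no independent evidence. MRP20, the homologue of bacterial L23 at the exit of the peptide tunnel, was at 1.04, 0.57 and 0.42 (mean 0.67, adjusted p = 0.0031). RSM10, the homologue of bacterial S10, was at 0.47, 0.60 and 0.70 (mean 0.59, adjusted p = 0.0013), and MRPL36, the homologue of bacterial L31, at 0.30, 0.67 and 0.69 (mean 0.55, adjusted p = 0.0036). The calls of these 4 genes held without any 1 replicate. MRPL28, which encodes a mitochondria-specific protein of the large subunit, had 0.49, 0.24 and 0.31 (mean 0.34, adjusted p = 0.018), and its call was lost without replicate 2 (adjusted p = 0.0896). Next in order came RSM23, the yeast homologue of human DAP3, with 0.08, 0.44 and 0.11, MRPL31 with 0.48, 0.15 and -0.05, and MRP10, a small protein with paired cysteine motifs, with 0.02, 0.25 and 0.30. None of these 3 passed the test with all arrays (adjusted p of 0.1307, 0.2032 and 0.1447), and MRP10 passed without replicate 1 (adjusted p = 0.0212).

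The 60 means formed a near-continuous order. The SD of a gene over the 3 arrays had a median of 0.16, as for all genes. Neighbours in the order differed by less than that, except MRPL36 from MRPL28 and RSM28 from MRP20, while the middle 50% of the 60 means lay between -0.46 and 0.04. The widest spans over the arrays were those of RSM18 (0.13, -0.64 and -0.76), the homologue of bacterial S18, MRPL17 and MRPL6. The 27 genes that did not pass had means from -0.42 for RSM18 to 0.21 for RSM23. Below 0 were, in the large subunit, the mitochondria-specific MRPL44 (-0.36), IMG2 (-0.29) and MRPL27 (-0.15) and the homologues MRPL8 (L17, -0.21), MRPL7 (L5, -0.15), MRPL23 (L13, -0.13), MRPL39 (L33, -0.13), MRPL11 (L10, -0.12), MRPL10 (L15, -0.07) and MRPL40 (L24, -0.05). In the small subunit, MRPS5 (S5, -0.25), MRP4 (S2, -0.19) and the mitochondria-specific RSM25 (-0.055) were below 0 as well, and RSM22 (0.0064), NAM9 (S4, 0.02) and MRP13 (mitochondria-specific, 0.03) were close to it. Above them came MRPL25 (mitochondria-specific, 0.06), MRPL15 (0.12), MRP51, which takes the place of bacterial S1 (0.14), RSM24 (mitochondria-specific, 0.15), RSM7 (S7, 0.16), MRPL24 (L28, 0.16) and MRPL16 (L16, 0.18). RSM24 was even, at 0.15, 0.16 and 0.14, but did not pass (adjusted p = 0.1836). Replicates 2 and 3 were the most alike over the 60 genes (Pearson's r = 0.92), followed by replicates 1 and 2 (0.81) and by replicates 1 and 3 (0.72). This describes genes that share arrays, and over all genes the pairs stood in the same order (0.97, 0.93 and 0.89).

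The large and the small subunit were set side by side. In the large subunit, 18 of 36 genes fell and 3 rose, and in the small subunit 10 of 24 fell and 2 rose. The 10 genes are 41.7% of the small subunit, and the genes that rose are 8.33% of either subunit. Of all genes, 27.9% fell and 26.9% rose. The mean was below 0 for 28 of 36 genes of the large and 14 of 24 genes of the small subunit. The median log2 ratio was -0.25, -0.23 and -0.32 on the 3 arrays for the large subunit (-0.26 ± 0.05, SD, n = 3) and -0.13, -0.23 and -0.24 for the small subunit (-0.20 ± 0.06). The large minus small difference was -0.12, 0.0025 and -0.08 (-0.07 ± 0.06). By medians, the 2 subunits thus differed by about the spread between arrays, and on the array of replicate 2 they were nearly equal. By means over genes, the large minus small difference was -0.10, -0.04 and -0.05 (-0.07 ± 0.03), below 0 on each of the 3 arrays. It was not tested, since 3 arrays cannot give a small exact p. Both subunits held genes near -0.9 and genes above 0.5.

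**Figure D2:**
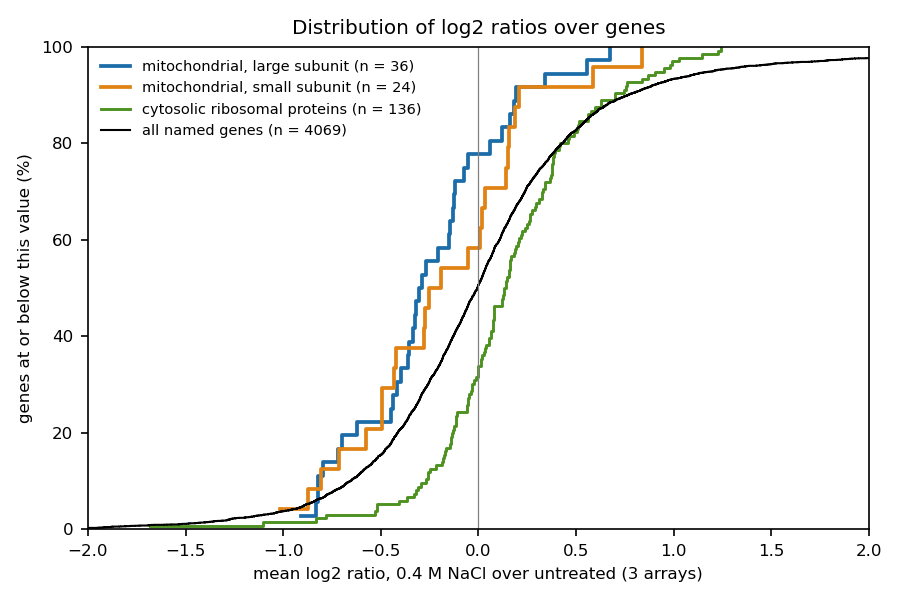
Cumulative share of genes (y axis, percent) at or below a mean log2 ratio of NaCl over untreated cells (x axis, mean of 3 arrays, shown from -2 to 2), for 36 genes of the large and 24 of the small mitochondrial subunit, 136 cytosolic ribosomal protein genes and all 4069 named genes. Of the mitochondrial genes 77.8% (large) and 58.3% (small) lay below 0, of the cytosolic genes 33.8% and of all genes 50.6%.

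Descent from bacterial ribosomes was set against the values, a property that the choice of genes did not use. Of 36 homologues of bacterial proteins, 18 fell and 3 rose, and of 23 mitochondria-specific proteins, 10 fell (43.5%) and 2 rose. The shares over all genes were 27.9% that fell and 26.9% that rose. The median was -0.24, -0.27 and -0.27 on the 3 arrays for the homologues and -0.03, -0.12 and -0.32 for the mitochondria-specific proteins. By the median of gene means the classes were level, at -0.27 for the homologues and -0.28 for the mitochondria-specific proteins. Within the small subunit, 7 of 14 homologues and 3 of 9 mitochondria-specific genes fell. Those 3 genes are 33.3% of their class, near the 27.9% of all genes, and 1 of the 9 rose. Within the large subunit, 11 of 22 homologues and 7 of 14 mitochondria-specific genes fell, the same share.

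Genes for proteins that lie together in the ribosome were next compared, in groups made after the values were seen and therefore described with no test. Places are those known for the homologues in Escherichia coli unless stated. The groups were listed by hand and do not hold every protein of a place. MRP51, which takes the place of bacterial S1 (mean 0.14), was put in none of them. As listed, the platform of the small subunit had the narrowest range among the groups of 3 or more genes. Its 5 genes had means between -0.58 and -0.42: MRP21 (homologue of S21), MRP17 (S6), MRPS18 (S11) and MRPS28 (S15) fell, and RSM18 (S18) did not pass. Proteins S6 and S18 bind each other in the bacterial ribosome, and MRP17 stood at -0.35, -0.55 and -0.57, while RSM18 stood at 0.13, -0.64 and -0.76. Both were nearest to 0 on the array of replicate 1, and RSM18 passed without that replicate (adjusted p = 0.00051).

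The head of the small subunit, by contrast, held genes that moved in both directions. MRPS9 and MRP2 fell by 1.02 and 0.81 on the log2 scale and RSM19, the homologue of S19, by 0.27, whereas RSM10 rose by 0.59. RSM7, the homologue of S7, was at 0.40, 0.24 and -0.17 and did not pass (adjusted p = 0.3085). In the body, MRPS5 (homologue of S5) had a mean of -0.25 and NAM9 (homologue of S4) one of 0.02, and neither passed. MRP1 and RSM26, a pair of mitochondria-specific proteins with the fold of superoxide dismutase, both fell. RSM26 was at -1.06, -0.61 and -0.47 (mean -0.71, adjusted p = 0.0021), less even than MRP1. VAR1, the one protein of this ribosome that mitochondrial DNA encodes, was at -0.03, -0.14 and -0.08 and did not pass (adjusted p = 0.4635).

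In the large subunit, RML2, MRPL9 and MRP7 of the peptidyl transferase region fell, with means of -0.42, -0.36 and -0.32. They encode homologues of L2, L3 and L27, and each call was lost without replicate 2 (adjusted p of 0.0532, 0.1566 and 0.1554). MRPL16, the homologue of L16 in the same region, was at 0.26, 0.23 and 0.06 and did not pass (adjusted p = 0.1389). At the exit of the peptide tunnel, MRP20 rose, MRPL4 (homologue of L29) had -0.11, -0.31 and -0.59 and fell, and MRPL40 (homologue of L24) had 0.11, -0.05 and -0.22. The 3 genes listed there thus took all 3 outcomes. At the base of the stalk, MRPL19 fell and MRPL11 (homologue of L10) had a mean of -0.12 and did not pass.

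The central protuberance was split as well. MRPL35 and MRPL17, mitochondria-specific proteins placed there in the yeast mitochondrial ribosome, fell by 0.80 and 0.70 on the log2 scale. MRPL28, likewise mitochondria-specific, and MRPL36 rose by 0.34 and 0.55. MRPL7, the homologue of L5, was at -0.39, 0.09 and -0.14. Of the pair with a fold like RNase III, MRPL3 fell, at -0.67, -0.21 and -0.32, and MRPL15 had 0.10, 0.30 and -0.04.

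**Figure D3:**
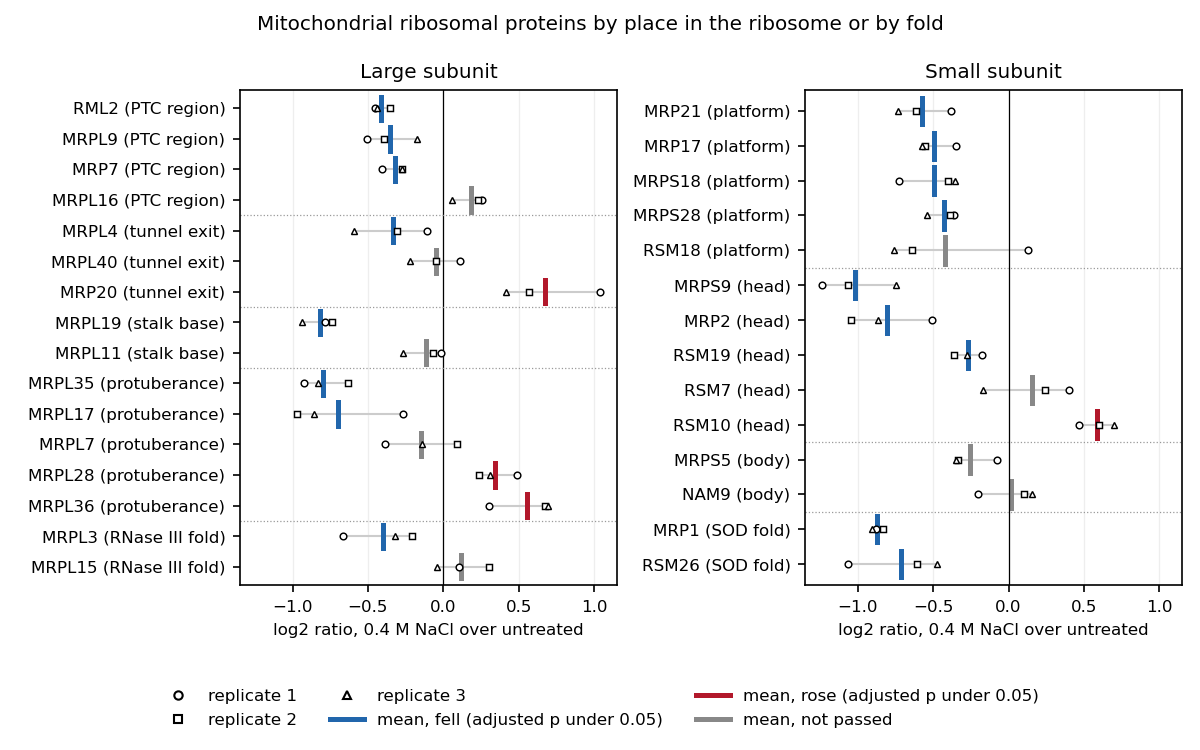
Log2 ratio of NaCl over untreated cells (x axis) for genes grouped by place in the ribosome or by fold (rows), in the large subunit (left) and the small subunit (right). Symbols are the 3 arrays and bars their mean, blue where the gene fell, red where it rose and grey where it did not pass; PTC is the peptidyl transferase centre and SOD superoxide dismutase. The 5 genes listed for the platform lie between -0.58 and -0.42 by their means, while those listed for the head span -1.02 to 0.59.

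The 7 spots of a gene allowed a check within arrays, although the sources used here do not say whether they hold 1 probe or several. For 28 of the 60 genes, all 21 values (7 spots on 3 arrays) were below 0, and for 7 genes all were above 0, where 24.7% and 26.1% of all genes were. Of those 28 genes, 25 fell, and MRP4, MRPL8 and MRPS5 did not pass. Of those 7, the 5 genes that rose were joined by RSM23 and RSM24. Between spots of 1 gene, the SD had a median of 0.086, 0.11 and 0.095 on the arrays of replicates 1, 2 and 3.

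On some arrays a single high spot pulled up the average of IMG2 and of MRPL44. IMG2, a mitochondria-specific protein of the large subunit, averaged -0.15, -0.11 and -0.61 and did not pass (adjusted p = 0.0735). Its highest spot was at 1.66 and 1.61 on the arrays of replicates 1 and 2, while the next highest was at -0.30 and -0.31. For MRPL44, another mitochondria-specific protein, the highest spot was at 1.88 on the array of replicate 1 and the next at -0.09. On the array of replicate 3 these were at 0.46 and -0.56. The average of the gene was 0.04, -0.57 and -0.55 (adjusted p = 0.0534). Without replicate 1, IMG2 and MRPL44 passed (adjusted p of 0.0431 and 0.00105). When the median of the spots was taken in place of their mean, both fell, IMG2 with a mean of -0.46 (adjusted p = 0.0056) and MRPL44 with -0.52 (adjusted p = 0.0062). RSM18 fell too by that measure (mean -0.54, adjusted p = 0.0365). Its value on the array of replicate 1 did not rest on 1 spot, since 6 of its 7 spots were above 0 there and none were on the other arrays. MRP21, RSM27 and MRPL33 fell although their highest spots on the array of replicate 2 were at 0.45, 0.44 and 0.55. They kept their calls by the median of spots.

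Genes that act with this ribosome were followed in lists drawn up beside the 60 genes. Of 4 ribosomal proteins with other names, PET123 of the small subunit was at 0.66, 0.35 and 0.23 and rose, and FYV4, also of the small subunit, was at -0.23, -0.28 and -0.37 and fell. Both calls were lost without replicate 2 (adjusted p of 0.0528 and 0.2192), and that of FYV4 also without replicate 3 (0.1445). MHR1, a large subunit protein also known for its part in recombination of mitochondrial DNA, and QRI5 did not pass.

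Among 7 general translation factors, 4 fell (57.1%) and none rose, where 27.9% of all genes fell and 26.9% rose. The release factor gene MRF1 was at -0.83, -0.84 and -0.83, the least spread of the list, and TUF1, the elongation factor that brings tRNAs to the ribosome, was at -0.80, -0.88 and -0.73. MEF1, the translocation factor, was at -0.90, -0.82 and -0.66, and the initiation factor gene IFM1 at -0.25, -0.55 and -0.61. IFM1 did not pass without replicate 2 (adjusted p = 0.0662). FMT1, MEF2 and GUF1 had means of -0.20, -0.13 and 0.05 and did not pass. Of 9 genes for assembly and rRNA modification, 4 fell (44.4%) and 1 rose (11.1%). The helicase genes MSS116 and MRH4 had means of -0.89 and -0.78, and MRM1, a methyltransferase for the large rRNA, one of -0.79. YTA12 fell (mean -0.33) while AFG3 rose (mean 0.30), although their products form 1 protease, which matures the ribosomal protein encoded by MRPL32. Either call was lost without replicate 2 (adjusted p of 0.261 and 0.262) and without replicate 3 (0.1139 and 0.0565). MRPL32 itself fell by 0.33, and its call too was lost without either replicate.

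Of 18 activators of single mitochondrial mRNAs and membrane receptors of the ribosome, 5 fell and 2 rose. The 5 genes are 27.8% of the list, beside 27.9% of all genes that fell, so their number is at the background. PET309, an activator for COX1, fell by 0.69 on the log2 scale, and AEP2, needed for the ATP9 transcript, by 0.52. OXA1, the insertase that receives nascent chains, fell by 0.65, with -0.14, -0.71 and -1.11 on the arrays, and MBA1, a ribosome receptor at the inner membrane, by 0.60. MAM33 fell by 0.60, with -0.69, -0.53 and -0.60. PET54, an activator for COX3, rose by 0.77, with 0.70, 0.64 and 0.98, whereas PET494 and PET122, which act on the same mRNA, had means of 0.25 and -0.08 and did not pass. ATP22, an activator for ATP6, rose by 0.44, but did not pass without replicate 2 (adjusted p = 0.1127) or replicate 3 (0.0862). Of 5 genes for mitochondrial transcription, 3 fell (60.0%, against 27.9% of all genes) and none rose. The polymerase gene RPO41, its partner MTF1 and SLS1 fell by 0.54, 0.69 and 0.50. MTF2 and PET127 had means of 0.04 and 0.06 and did not pass. Over these 4 lists of 39 genes, 16 fell (41.0%, against 27.9% of all genes) and 3 rose (7.69%, against 26.9%). The median was -0.25, -0.20 and -0.25 on the 3 arrays, close to that of the 60 genes.

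**Figure D4:**
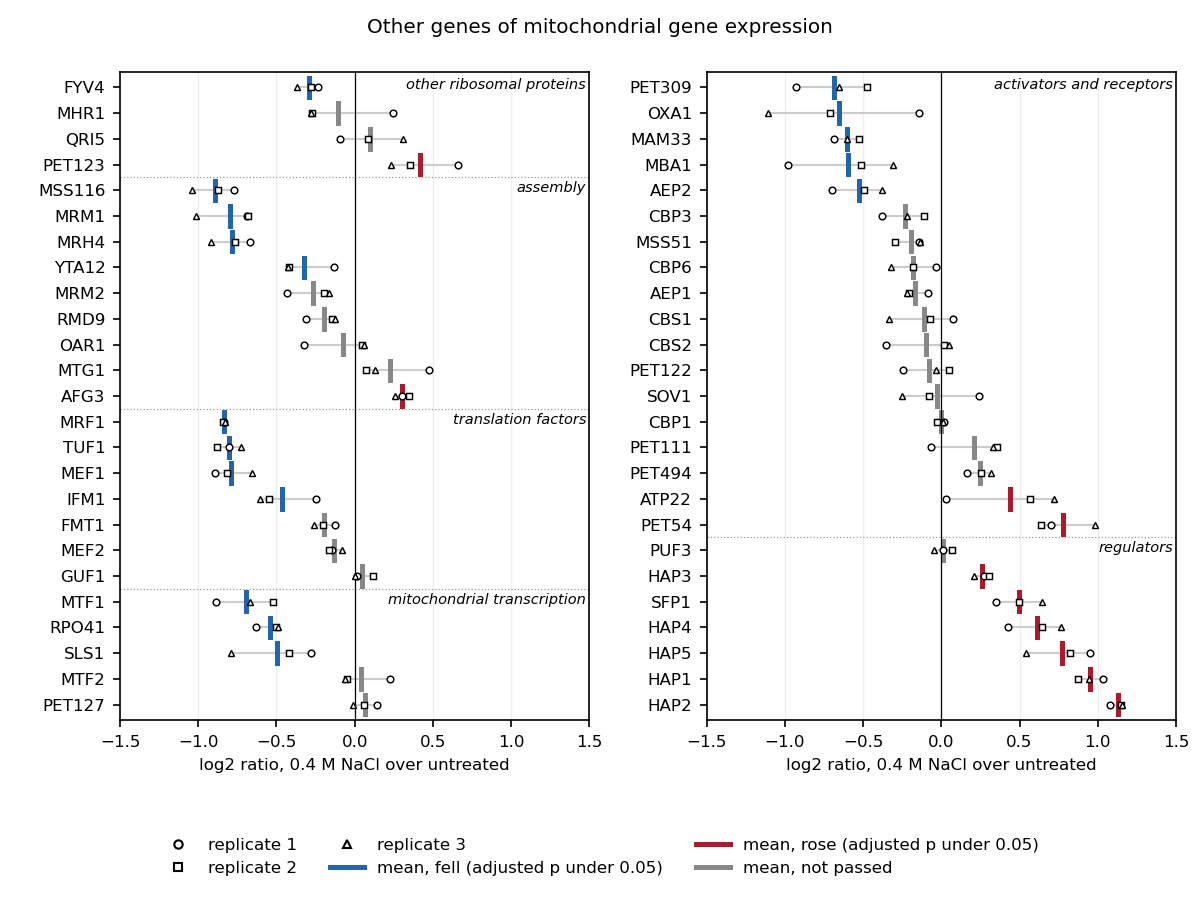
Log2 ratio of NaCl over untreated cells (x axis) for other genes of mitochondrial gene expression (rows), by list. Symbols are the 3 arrays and bars their mean, blue where the gene fell, red where it rose and grey where it did not pass. Translation factors and transcription genes lie mostly below 0, and the means of the regulators run from 0.01 for PUF3 to 1.13 for HAP2.

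Regulators of these genes were measured as well. PUF3 encodes the protein that binds the 3′ ends of many mRNAs for mitochondrial ribosomal proteins, and its own transcript was at 0.01, 0.07 and -0.04 (adjusted p = 0.9257). The subunits of the HAP complex, an activator of genes of respiration, all rose: HAP2 by 1.13 (1.08, 1.15 and 1.15), HAP5 by 0.77, its regulated subunit HAP4 by 0.61 and HAP3 by 0.26. HAP3 did not pass without replicate 2 (adjusted p = 0.3419) or replicate 3 (0.0946). HAP1, an activator that responds to heme and whose gene carries a Ty1 insertion in strains of this background, rose by 0.95, and SFP1, an activator of cytosolic ribosomal protein genes, by 0.50. Of these 7 genes, 6 rose and none fell, where 26.9% of all genes rose.

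The 136 cytosolic ribosomal protein genes are the closest group by function, and many of them are near-identical pairs whose spots may measure both copies. Of these genes 10 fell (7.35%, against 27.9% of all genes) and 39 rose (28.7%, near the 26.9% of all genes). Their median was -0.10, 0.14 and 0.32 on the arrays of replicates 1, 2 and 3, so it moved over the arrays while that of the mitochondrial genes stayed between -0.27 and -0.21. The mitochondrial minus cytosolic difference of medians was -0.11, -0.36 and -0.60, below 0 on each array but of uneven size (-0.36 ± 0.25, SD, n = 3).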

How the data were processed

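Stressed and untreated RNA of 3 cultures were compared on 3 two-colour arrays. The authors deposited 1 normalized value per spot, read here as a log2 ratio of NaCl over untreated. According to the submitters' processing notes limma was used. The version and the methods of background correction and normalization were not given in the sources used here. Without spot intensities, which were not analysed here, no filter on dim spots was possible, and the number of arrays limits the precision. The log base is not stated. The genes of the study's osmoresponsive list, chosen at a fold over 1.75, had a lowest mean value of 0.721, near 0.807 (log2 of 1.75) and above 0.56 (its natural log).

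Of 45220 spots, 28532 (63.1%) carried a symbol in the platform annotation, and R64 names (3940 current, 129 through a synonym, 4 kept) gave 4069 genes. Spots were averaged per gene and array without further normalization. limma 3.58.1 (R 4.3.3) fitted an intercept to the 3 ratios of each gene, with empirical Bayes, two-sided tests and Benjamini-Hochberg adjustment over all genes at 0.05. A gene is said to rise or fall only past this threshold. Before its use, this fit was tested on simulated data. Medians over genes are given per array with mean and SD over arrays, with no test. Tables and figures were made with Python 3.11.15, pandas 2.3.3 and matplotlib 3.10.9.

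All genes of the rule may be named, with values on every array for the 8 lowest and 8 highest. The members and lists were chosen with earlier results of these data known. Roles in the ribosome were written by hand, and 69 of 69 uniform names were found in R64. As alternatives, each replicate was left out in turn, arrays were centred on the median gene or also scaled, and the spots of a gene were summarised by their median. Further ones were robust empirical Bayes, a threshold of 0.01, leaving out genes that span over 1, the mean over genes, and other subunit lists. Motif and protein sequence features were not run.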

Additional observations from a re-analysis of the deposited data

How the results depend on the processing

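The counts of genes that fell and rose, 28 and 5 with all arrays, stayed within 1.5 times of these values under centring, scaling, the median of spots, robust empirical Bayes and leaving out genes that span over 1, with 27 to 31 that fell and 5 that rose. Leaving out 1 replicate in turn gave 17 to 33 that fell and 4 to 6 that rose, and 9 to 21 that fell in the large subunit. At a threshold of 0.01, 11 instead of 18 fell in the large subunit. Of the 28 genes that fell, 17 kept the call in all 8 alternative fits, and of the 5 that rose, 4 did. MRPL33 alone lost its call under centring and scaling (adjusted p of 0.0536 and 0.0537 from limma). The median of the large subunit minus that of the small one, -0.07 with all genes, was -0.01 ± 0.10 (SD, n = 3) without RSM22, and -0.11 ± 0.03 with the 4 proteins under other names added. The fit to ratios was itself paired, since both conditions of a culture lie on 1 array, which is the block.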

Other observations

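Many of these genes share an upstream region with a gene on the other strand, and the neighbours were looked up in the gene order of R64 after the values were seen. Of the 60 genes, 36 have a divergent upstream neighbour, and for 22 of them the neighbour had named spots. The 2 log2 ratios had the same sign in 11 of the 22 pairs. Among all genes, 27.9% fell and 26.9% rose. Of the 22 ribosomal genes in these pairs, 13 fell, and both genes fell in 4 pairs. Among them were MRPL6 (-0.91) with IMP3 (-0.87), which encodes a protein of the small subunit processome of the nucleolus, and MRP1 (-0.87) with SVF1 (-0.81). In 5 pairs the ribosomal gene fell and its neighbour rose, such as MRP17 (-0.49) and DID4 (0.44). RSM10 was the one gene that rose together with its divergent neighbour. That neighbour is ENA1, which encodes a sodium pump, at 2.52, 2.58 and 2.22 on the 3 arrays (mean 2.44, adjusted p = 1.28e-06 from limma), against 0.47, 0.60 and 0.70 for RSM10. Spots for ENA1 may also measure its near-identical copies. For MRP20 the directions were opposed: it rose by 0.67, while RPB7, a subunit gene of RNA polymerase II on the other strand, fell by 0.62. What a shared region contributes was not tested.

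MRP8, which the symbol alone would have counted with these genes, was at 1.84, 1.58 and 1.81 (mean 1.74, adjusted p = 4.23e-06 from limma), above every value of the 60 genes on each array.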
